A study of Mus musculus with 27 samples.

Results

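The wild type E14 line of mouse embryonic stem cells was compared with embryoid bodies made from it, at day 3 against day 0, with 3 RNA libraries at each time. The 6 libraries were taken by their labels from a series of 27, which also holds wild type embryoid bodies at day 10 and knockout lines of the RNA-binding proteins Sam68 and Quaking in the same E14 background at all 3 times. None of the 6 libraries carries a knockout or a transgene, and no drug or other agent is named for them. All wild type libraries come from 1 reference line grown as biological triplicates, so p-values measure the spread between cultures of that line and not between lines. The culture medium of the stem cells is not given in the sources used here.

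Embryonic stem cells in the naive state resemble the epiblast of the embryo before implantation, and the cytokine LIF, acting through STAT3, is widely used to hold them there. Cells that leave this state pass through a formative state resembling the epiblast just after implantation. Under Wnt and Nodal signals they then switch on genes of the primitive streak, the structure of the gastrulating embryo from which mesoderm and endoderm arise. Embryoid bodies, which are free-floating aggregates of stem cells, run through these steps in culture without the geometry of an embryo.

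RNA had been depleted of ribosomal RNA and read from both ends. Each of the 6 libraries held 66509148 to 69184884 counts, and a gene that entered the test had a median of 308 counts per library. Values below are CPM, the counts of a gene per M counts of its library after TMM scaling, which corrects library totals for differences in composition, and the 3 values of a group are given in the order of replicates 1, 2 and 3. Log2 fold changes are day 3 over day 0 with their standard error (SE). Genes were called at an adjusted p under 0.05 by the quasi-likelihood F-test of edgeR, adjusted by Benjamini and Hochberg's method over all 21060 genes tested. The variation between replicates that this fit estimated was 8.59% over the 9 wild type libraries and 4.91% in a fit of the 6 compared libraries alone. Correlations between replicates of log expression ran from 0.9951 to 0.996, against at most 0.9349 between a day 0 and a day 3 library. The day 0 libraries held the defining stem cell genes Pou5f1, Zfp42 and Nanog at 416 CPM or more in each. In bulk RNA, fewer cells of a type cannot be told apart from less RNA per cell.

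By day 3 most of the transcriptome had moved. Of 21060 genes tested, 12830 were called (60.9%), 6487 of them higher (30.8%) and 6343 lower (30.1%). The median log2 fold change over all genes tested was 0.01 and the median size was 0.51, so many calls were small, and 4343 called genes differed by less than 1.5-fold. A change of at least 2-fold was called for 5918 genes (28.1%), of which 2874 were higher (13.6%) and 3044 lower (14.5%). A change of at least 10-fold was called for 550 genes higher and 702 lower. The groups did not overlap for 14870 genes, or 70.6%, so an absence of overlap alone was the common outcome in this comparison. The gene lists below are read against these shares, and a gene can belong to more than one list.

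**Figure D1:**
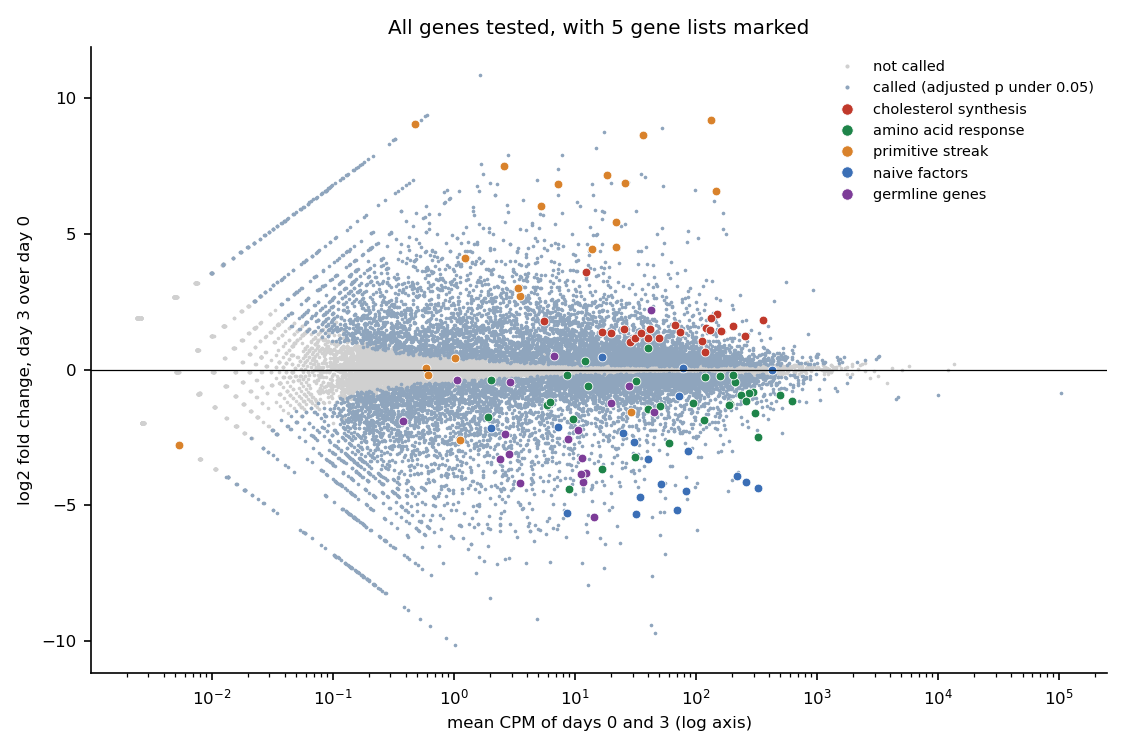
Mean CPM of days 0 and 3 (log axis) against the log2 fold change for the 21060 genes tested, with the members of 5 gene lists in colour and the straight diagonal bands at the left holding genes with few or no counts on 1 day, whose fitted values depend on a prior count. The 24 cholesterol synthesis genes all lie above 0, and primitive streak genes reach 9.20, while naive factors and germline genes reach down to -5.44.

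**Figure D2:**
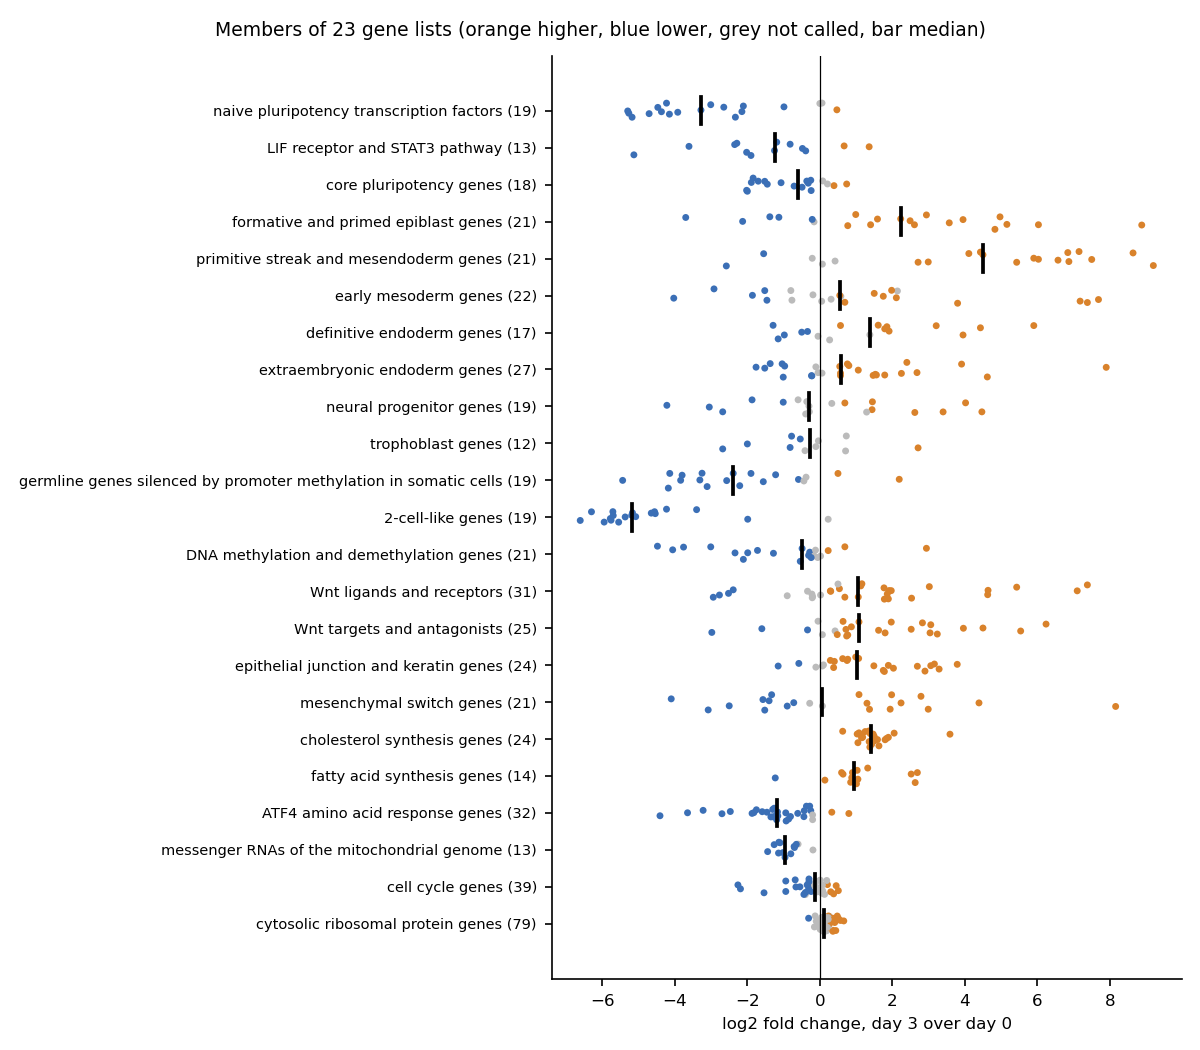
Log2 fold change of each member of 23 gene lists, with the number of members tested in brackets, called genes in orange (higher) or blue (lower), other genes in grey and the list's median as a black bar; members with no count on 1 day are drawn at their lower bound (Evx2, at or under 3 counts on both days, is not drawn). Medians ran from -5.19 for the 2-cell-like genes to 4.50 for the primitive streak list, against 0.01 over all genes.

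Most transcription factors of the naive state fell, with Nanog and Tfe3 as the exceptions. The list also holds Nfkbia, which is not a transcription factor and rose. Of its 19 members tested, 16 fell, against 30.1% of all genes tested, 1 rose and 2 were not called, and the median log2 fold change was -3.28. Esrrb (ENSMUSG00000021255, 12:86361117-86521628, GRCm38), an orphan nuclear receptor of the naive circuit, stood at 492, 483 and 507 CPM at day 0 and at 28.1, 30.9 and 24.3 CPM at day 3. That was a log2 fold change of -4.15 (SE 0.12, adjusted p = 6.11e-12 by edgeR). Zfp42, the zinc finger protein Rex1 used as a reporter of the naive state, went from 614, 631 and 637 CPM to 30.1, 31.5 and 29.1 CPM, 20.7-fold lower. Prdm14, which restrains FGF signalling and DNA methylation in naive cells, went from 16.8, 17.4 and 16.5 CPM to 0.403, 0.51 and 0.397 CPM, 38.7-fold lower. The groups of all 3 factors were far apart compared with their spread.

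The Klf factors, partners of Esrrb and Tfcp2l1 in the same circuit, differed in how far they fell. Klf4 fell 36.3-fold, from 131, 133 and 140 CPM to 3.56, 4.01 and 3.58 CPM. Klf5 fell 8.04-fold, from a mean of 154 ± 8.6 CPM (SD, n = 3) to 19.2 ± 2.22 CPM. Klf2 fell 5.03-fold, from 41.6 ± 1.98 to 8.28 ± 0.808 CPM. The steepest fitted falls of the list were those of Gbx2 (-5.30, SE 0.11), which shares 42.2% of its exon sequence with other genes, Prdm14 (-5.27, SE 0.14) and Klf4 (-5.18, SE 0.08). Tbx3 fell 6.29-fold to 8.39 ± 0.803 CPM, and at day 10 its mean was 31.6 CPM, above every day 3 library.

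Nanog, the homeobox factor of both naive and gastrulating epiblast, stood at 416, 433 and 431 CPM at day 0 and at 428, 423 and 429 CPM at day 3. Its groups overlapped, with a log2 fold change of 0.00 (SE 0.09, adjusted p = 1). By day 10 its mean was 18.5 CPM. Tfe3, a transcription factor that is held in the nucleus in naive cells and regulated there through its location, was likewise not called (0.06, SE 0.06, adjusted p = 0.36). Nfkbia, an inhibitor of NF-kappaB, was the member that rose, from 14.2, 13.4 and 14.7 CPM to 18.3, 20.4 and 19.9 CPM.

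Genes of the LIF receptor and STAT3 pathway fell as well. Of 13 tested, 11 fell and 2 rose, with a median of -1.25. Socs3, the feedback inhibitor induced by STAT3, went from 127, 131 and 139 CPM to 3.92, 3.45 and 3.96 CPM, a log2 fold change of -5.13 (SE 0.09). The receptor chain Lifr fell from 208, 205 and 202 CPM to 52.4, 53 and 46.4 CPM (-2.02, SE 0.07), and the transducer Stat3 from 114, 117 and 118 CPM to 30.1, 30.6 and 33 CPM (-1.90, SE 0.06). In contrast, the kinase Jak2 rose from 10.5, 9.94 and 10.5 CPM to 25.8, 27.2 and 26.2 CPM. Ptpn11, a phosphatase that couples the receptor to ERK, rose 1.59-fold to 127 ± 4.27 CPM.

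The genes shared by all pluripotent states had smaller fold changes than the naive factors. Of 18 core genes tested, 14 fell, 2 rose and 2 were not called, with a median of -0.60. Pou5f1 (Oct4), the POU factor needed for pluripotency, stood at 933, 943 and 994 CPM at day 0 and at 766, 815 and 839 CPM at day 3. Its groups did not overlap, but the difference was small (-0.25, SE 0.08, adjusted p = 0.0196) and the adjusted p was 0.0771 without replicate 3 of day 0, 0.0855 without replicate 1 of day 3 and 0.0514 without replicate 2 of day 3. With total counts and no TMM scaling it was 0.156. Its partner Sox2 fell clearly, from 233, 230 and 239 CPM to 84.6, 81.2 and 78.2 CPM (-1.52, SE 0.07).

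Lin28a, an RNA-binding protein that blocks maturation of let-7 microRNAs, was 1 of the 2 core genes that rose, from 455, 448 and 461 CPM to 593, 599 and 600 CPM (0.39, SE 0.06). The other was Tcf7l1, the repressor that acts at Wnt targets in stem cells, at 8.7 ± 0.145 CPM and 14.5 ± 0.547 CPM. Sall4 was not called, at 410, 401 and 417 CPM against 418, 446 and 432 CPM (0.08, SE 0.06, adjusted p = 0.322). Among the falls, Jarid2, a Polycomb cofactor, dropped 3.57-fold to 174 ± 7.1 CPM. Dppa4, a chromatin protein of early embryos, dropped 4.04-fold to 43.1 ± 0.707 CPM, with 31.3% of its exon sequence shared with other genes.

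Markers of the formative epiblast rose, many of them by more than 10-fold. Of 21 tested, 15 rose, against 30.8% of all genes tested, 5 fell and 1 was not called, and the median was 2.23. Fgf5 (ENSMUSG00000029337, 5:98254184-98277030), the FGF ligand that defines the epiblast after implantation, stood at 0.345, 0.0951 and 0.223 CPM at day 0 and at 95.6, 114 and 102 CPM at day 3. The difference was 471-fold, or 8.88 on the log2 scale (SE 0.22). Otx2, the homeobox factor that redirects Oct4 to formative enhancers, went from 7.88, 7.27 and 7.51 CPM to 118, 117 and 116 CPM. Pim2, a serine kinase, went from 8.83, 9.05 and 9.58 CPM to 329, 307 and 345 CPM (5.16, SE 0.24). All 3 genes were lower again at day 10, with means of 6.27, 15.4 and 18 CPM.

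Dnmt3b (ENSMUSG00000027478, 2:153649450-153687730), the de novo DNA methyltransferase of the early epiblast, had the highest level per kilobase of exon in this list at day 3, 321 CPM per kb against 117 for Pim2. It went from 212, 212 and 218 CPM to 1717, 1555 and 1638 CPM (2.94, SE 0.11). Other members rose as well, some from under 1 CPM. Nkx1-2 stood at 0.155 ± 0.00635 CPM and then at 10.3 ± 0.725 CPM, Car14 at 0.916 ± 0.105 and 28.8 ± 0.717 CPM, and Zic2 at 6.99 ± 0.521 and 199 ± 2.58 CPM. Sox3 and Pou3f1, which mark epiblast and later neural progenitors, rose 5.61-fold and 3.02-fold.

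The formative members that fell included Tcf15, Etv4, Cldn9 and Etv5. Tcf15, a bHLH factor that primes naive cells for exit, stood at 49.8, 57.3 and 60.7 CPM at day 0 and at 4.46, 4.42 and 4.02 CPM at day 3 (-3.70, SE 0.11). Etv4, an ETS factor downstream of FGF, went from 198, 193 and 201 CPM to 42.3, 45.2 and 47.8 CPM (-2.13, SE 0.06). Etv5 was only slightly lower (-0.21), and with total counts and no TMM scaling its adjusted p was 0.0992. Dnmt3a, the partner of Dnmt3b, was not called in the fit over all libraries, at 154, 151 and 153 CPM against 149, 128 and 133 CPM (adjusted p = 0.0617), but was called lower under 10 of the alternatives, with an adjusted p of 0.00895 in a fit of the 6 compared libraries alone, 0.0287 by DESeq2, 0.0175 without replicate 1 of day 3 and 0.0125 without replicate 1 of day 10.

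**Figure D3:**
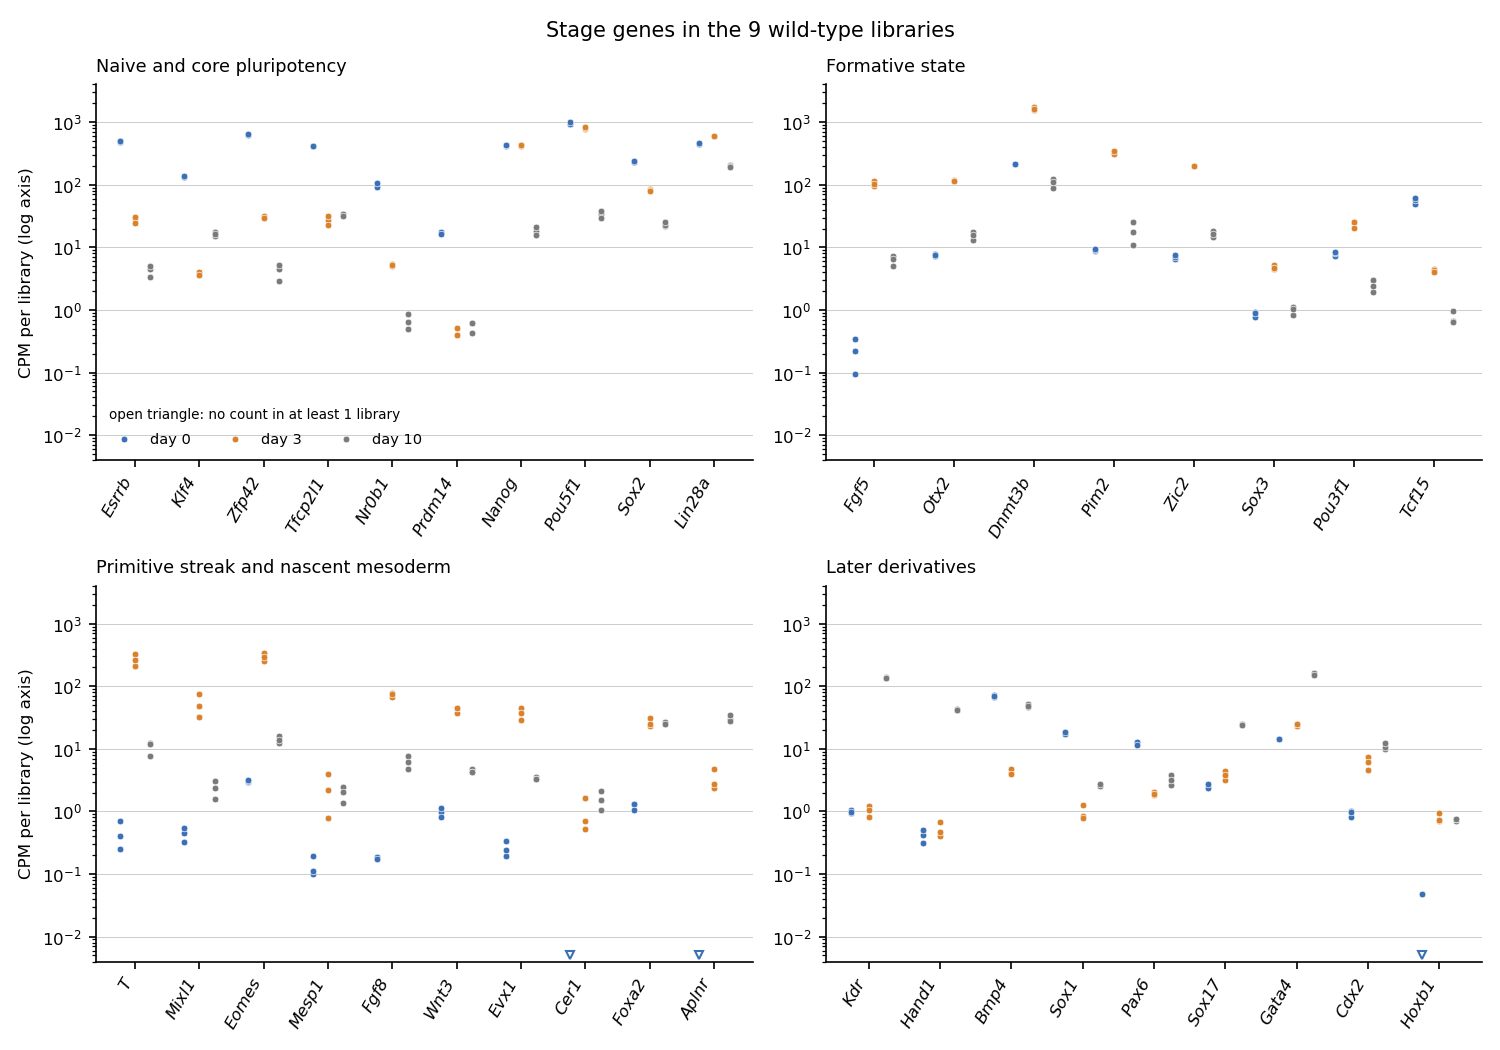
CPM (log axis) of stage genes in each wild type library at day 0 (blue), day 3 (orange) and day 10 (grey), in panels for naive and core factors, formative genes, primitive streak genes and genes of later lineages; an open triangle marks a group with at least 1 library at 0. Nanog keeps its level at days 0 and 3 while Klf4 leaves the range of the stem cells, streak genes start below 4 CPM, and Kdr and Hand1 separate from day 0 only at day 10.

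Genes of the primitive streak were the list with the highest median, 4.50. Of 21 tested, 15 rose, each by more than 2-fold, 2 fell and 4 were not called. T (brachyury; ENSMUSG00000062327, 17:8434423-8442496), the T-box factor of the streak and nascent mesoderm, stood at 0.706, 0.412 and 0.254 CPM at day 0 and at 208, 330 and 266 CPM at day 3, a 586-fold difference (9.20, SE 0.30, adjusted p = 1.72e-11 by edgeR). Eomes, the related factor needed for endoderm and cardiac mesoderm, went from 3, 3.07 and 3.17 CPM to 253, 335 and 289 CPM (6.57, SE 0.13). The day 0 level of T was low, at 85 counts over the 3 libraries, while Eomes stood at 3 CPM or more. For both genes no library of one day came near the other.

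Other factors and signals of the streak followed the same course. Mixl1, a homeobox factor of mesendoderm, went from 0.328, 0.444 and 0.541 CPM to 31.7, 74.1 and 49.1 CPM (6.87, SE 0.37). Evx1, a homeobox factor of the posterior streak, went from 0.256 ± 0.0703 CPM to 36.8 ± 7.57 CPM, 144-fold higher. Gsc, which marks the anterior streak and organizer, went from 0.148, 0.0634 and 0.159 CPM to 11.4, 17.6 and 14 CPM. Genes of both ends of the streak were therefore present in the same day 3 libraries. Fgf8, the ligand that streak cells need to migrate away, went from 0.181, 0.19 and 0.175 CPM to 66.1, 78 and 75.1 CPM.

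Genes that follow the first streak factors were at low levels. Mesp1, a bHLH factor of cardiac mesoderm, stood at 0.775, 3.98 and 2.24 CPM at day 3, against 0.0985, 0.111 and 0.191 CPM at day 0 (4.11, SE 0.61, adjusted p = 4.87e-05, and 3.49 without replicate 2 of day 3). Cer1, a secreted Nodal and Wnt inhibitor, had no count at day 0 and stood at 0.527, 1.66 and 0.692 CPM at day 3, at least 59.8-fold higher against a floor of 3 counts over the day 0 group. Lhx1, a LIM homeobox factor of the node and prechordal mesendoderm, had 5 counts in all at day 0 and stood at 2.65, 8.66 and 4.22 CPM at day 3. Foxa2, the forkhead factor of endoderm and node, stood at 1.22 ± 0.148 CPM and then 26.3 ± 4.2 CPM. Cdx2, a caudal factor of the posterior embryo, rose 6.54-fold to 6.06 ± 1.46 CPM.

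The 2 streak members that fell were Mesp2, from 1.94 ± 0.0195 to 0.322 ± 0.0833 CPM (-2.58, SE 0.28), and the ligand Fgf17, from 42.7, 42.1 and 44.4 CPM to 12.2, 17.3 and 14.7 CPM (-1.55, SE 0.11). Not called were Wnt3a (-0.21, adjusted p = 0.607), the paraxial mesoderm factor Tbx6 (0.07, adjusted p = 0.833), Cdx1 and Evx2. Cdx1 stood at 0.682, 1.62 and 1.21 CPM at day 3 against 0.878 ± 0.0912 CPM at day 0 (adjusted p = 0.211), and its adjusted p was 0.0206 without replicate 1 of day 3. Evx2 had 2 counts at day 0 and none at day 3.

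Within day 3, the streak genes ordered the 3 cultures the same way. Replicate 1 was lowest and replicate 2 highest for 14 of the 15 members that rose (93.3%), a tally made after their values were seen. The same order held for 21.3% of all genes called higher and for 16.9% of all genes tested. It held for 5 of 10 early mesoderm genes that rose and for 1 of 15 formative genes that rose. The summed level of the 15 streak genes was 713, 1048 and 874 CPM in replicates 1, 2 and 3. The share of counts on the mitochondrial ribosomal RNA mt-Rnr2 was 9.53%, 6.54% and 5.82% in the same libraries, so replicate 1 had the highest share, and its part in the order was not tested. Even the lowest day 3 library was above every day 0 library for each of the 15 genes.

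Early mesoderm genes changed in both directions. Of 22 tested, 10 rose, 5 fell and 7 were not called, with a median of 0.56. Apln, the ligand of the apelin receptor that guides nascent mesoderm, went from 0.509, 0.412 and 0.509 CPM to 50.9, 90 and 67.6 CPM, 146-fold higher. Its receptor Aplnr had no count at day 0 and stood at 2.36, 4.82 and 2.75 CPM at day 3, at least 206-fold higher. Rspo3, a secreted enhancer of Wnt signalling, went from 0.0821, 0.0951 and 0.0795 CPM to 11.9, 17.5 and 14.2 CPM. Ligand and receptor were thus detected together in each day 3 library.

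Pdgfra, a receptor of paraxial and cardiac mesoderm, rose by less, from 9.39, 9.32 and 8.02 CPM to 11.1, 16.2 and 11.9 CPM (0.55, SE 0.12), and had a mean of 324 CPM at day 10. Kdr, the VEGF receptor of blood and vessel precursors, was not called and its groups overlapped at 1.07, 0.951 and 0.986 CPM against 0.806, 1.21 and 1.07 CPM. Hand1 (0.31, adjusted p = 0.243) and Tbx20 (-0.19, adjusted p = 0.125), factors of lateral and cardiac mesoderm, were not called either. At day 10 these 3 genes had means of 137, 42 and 97.5 CPM, above every day 3 library. Msgn1, a factor of presomitic mesoderm, had 1 count at day 0 and 5 at day 3 and was too low to test.

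Definitive endoderm genes rose for 9 of 17 tested, with 5 falls and 3 not called. Besides Foxa2 and Eomes, described with the streak genes, the endoderm regulators Sox17 and Hhex had smaller fold changes. Sox17, the HMG factor that specifies endoderm, went from 2.56, 2.36 and 2.72 CPM to 3.19, 4.39 and 3.78 CPM (0.57, SE 0.12). Cxcr4, a chemokine receptor used to sort endoderm, rose 3.77-fold to 1.63 ± 0.341 CPM. Hhex, an anterior endoderm factor, fell from 3.96 ± 0.437 to 2.8 ± 0.359 CPM. Trh (ENSMUSG00000005892, 6:92242061-92244650), which encodes the precursor of thyrotropin-releasing hormone, was the most abundant member per kilobase at day 3, 729 CPM per kb against 27.7 for the next, Otx2. It stood at 99, 113 and 116 CPM at day 0 and at 1063, 941 and 1021 CPM at day 3 (3.21, SE 0.11). It was back at a mean of 32.9 CPM at day 10.

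Extraembryonic endoderm genes, which in embryoid bodies mark the outer visceral endoderm layer, rose for 16 of 27 tested and fell for 8. Their summed level did not rise, at 2047 to 2146 CPM at day 0 and 1871 to 1958 CPM at day 3. Ttr, the thyroxine carrier made by visceral endoderm, had 4 counts at day 0 and stood at 4.6, 5.68 and 6.34 CPM at day 3 (7.90, SE 0.28). Apob, the main protein of the lipoproteins that the yolk sac exports, went from 2.91, 2.76 and 3.02 CPM to 40.2, 46 and 44.2 CPM, and Cubn, an endocytic receptor, from 36.5, 41.1 and 35.8 CPM to 198, 210 and 189 CPM. Afp had 3 counts at day 0 and 88 at day 3. Of the 2 GATA factors that found this lineage, Gata4 rose 1.69-fold to 24.3 ± 1.26 CPM, and Gata6 was not called, at 8.58 ± 0.499 against 8.3 ± 2.09 CPM. Lama1, a laminin chain, fell 3.39-fold to 108 ± 0.88 CPM. All of these genes were higher at day 10 than in any day 3 library, with means of 141 CPM for Ttr and 1450 CPM for Apob.

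Genes of neural progenitors did not move together. Of 19 tested, 7 rose, 5 fell and 7 were not called, with a median of -0.29. Sox1, the earliest marker of neural plate, stood at 18.1, 17.2 and 18.4 CPM in the stem cells and at 1.25, 0.831 and 0.795 CPM at day 3, 18.6-fold lower. Pax6, a factor of neural and eye progenitors, went from 12.6, 12.7 and 11.7 CPM to 2.01, 1.82 and 1.93 CPM. Nes, an intermediate filament of progenitors that epiblast cells also make, rose from 23.5, 22.4 and 22.7 CPM to 143, 145 and 133 CPM. Msx1 and Zic1, which also mark ectoderm bordering the neural plate and mesoderm, rose 22.2-fold and 10.6-fold to 10.7 ± 2.26 and 2.04 ± 0.417 CPM.

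Hox and Cdx genes, which pattern the body axis, were at low levels on both days. All 39 together summed to 9.95 to 11.1 CPM at day 0 and 13.2 to 19 CPM at day 3. Of 38 tested, 8 rose, 9 fell and 21 were not called, so 17 were called against 60.9% of all genes. The part of the low counts in this share was not tested. Among those called, Hoxb6, Hoxc4 and Cdx4 each lost the call when certain single libraries were left out. Hoxb1, among the first Hox genes of the streak, had 3 counts at day 0 and 158 at day 3, where it stood at 0.697, 0.933 and 0.721 CPM.

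Markers of cells that the cultures could hold besides stem cell derivatives moved as follows, and their part in the other results was not tested. Of 14 fibroblast and feeder markers tested, 7 rose and 2 fell, and their summed level went from 27.8 to 32.9 CPM at day 0 to 57.8 to 75.1 CPM at day 3. Tagln, an actin-binding protein of smooth muscle and fibroblasts, made up most of the sum at day 3. It stood at 14.5 ± 1.17 CPM at day 0 and 46.5 ± 8.14 CPM at day 3 (58.3% of its exon sequence is shared). The collagens Col1a2 and Col3a1 stayed under 3 CPM, and S100a4 and Fap had no count at day 0. Of 17 blood and endothelium markers, 2 rose and 7 fell, and the sum went from 27.8 to 28.9 CPM down to 12.6 to 13.8 CPM, with Tek at 12.2 ± 0.246 and 1.47 ± 0.264 CPM and Emcn at 0 in the day 0 group. Of 12 trophoblast markers, 1 rose and 5 fell, and the sum went from 62.3 to 65.6 CPM down to 27.7 to 38.3 CPM, with Tpbpa at 0 in the day 0 group.

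Several Wnt ligands came on by day 3 while others went down. Of 31 Wnt ligands and receptors tested, 20 rose, 4 fell and 7 were not called, with a median of 1.06. Wnt8a, a ligand of the posterior epiblast and streak, went from 0.805, 0.428 and 0.414 CPM to 74.1, 75.6 and 75.7 CPM, 137-fold higher. Wnt3, the ligand required to form the streak, went from 0.985 ± 0.161 CPM to 42.5 ± 4.17 CPM, 43.1-fold higher. Wnt5b and Wnt11, ligands of the noncanonical branch that steers cell movement, rose 24.9-fold and 5.78-fold to 14.1 ± 2.01 and 11.9 ± 1.81 CPM. The ligands that fell were Wnt6, Wnt7b and Wnt10a, with Wnt7b at 3.19, 3.17 and 3.47 CPM and then 0.496, 0.466 and 0.471 CPM.

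The receptors that were called rose, except for Fzd5. This Frizzled receptor fell from 166, 171 and 176 CPM to 31.4, 30.2 and 27.6 CPM (-2.52, SE 0.09). Fzd7, another Frizzled receptor, rose from 80.2, 78.9 and 81.5 CPM to 172, 161 and 169 CPM. Ror1, a noncanonical coreceptor, rose from 0.969 ± 0.0826 to 24.1 ± 1.8 CPM. Lgr4, the receptor of R-spondins such as Rspo3, rose 2.23-fold to 264 ± 4.47 CPM.

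Wnt target and antagonist genes rose in the same libraries for 19 of 25 tested, with 3 falls and a median of 1.08. Axin2, the universal feedback target of beta-catenin, went from 15.2, 14.4 and 15.5 CPM to 117, 136 and 123 CPM (3.06, SE 0.08). Lef1, the DNA-binding partner of beta-catenin, went from 5.09, 4.04 and 3.91 CPM to 37.4, 44.1 and 41.5 CPM. The target factors Sp5 and Sp8 reached 42.2 ± 10.6 and 33.1 ± 1.05 CPM from under 2 CPM. Secreted antagonists rose too, Dkk1 by 8.25-fold to 8.3 ± 0.968 CPM and Frzb from 18 counts to 1499. The falls included Notum, the enzyme that inactivates Wnt by removing its lipid, from 17.3, 16.1 and 16.8 CPM to 2.09, 2.38 and 1.91 CPM, and the antagonist Sfrp1, from 57.1, 54.5 and 56.3 CPM to 19.3, 17.7 and 18.3 CPM. The antagonists named here thus moved in both directions.

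Nodal and its feedback genes rose, while BMP4 and the activin chain Inhbb fell sharply. Of 39 genes of the Nodal, BMP and TGF-beta pathway tested, 26 rose, 10 fell and 3 were not called, with a median of 0.63. Nodal, the ligand that patterns epiblast and streak, went from 67.2, 66.8 and 71 CPM to 148, 154 and 156 CPM (1.16, SE 0.06). Its feedback inhibitors rose 4.52-fold and 4.92-fold, Lefty1 from 38, 41.1 and 48.1 CPM to 223, 165 and 187 CPM and Lefty2 from 18.9, 21.9 and 23.8 CPM to 112, 106 and 101 CPM. Foxh1, the DNA-binding partner of Smad2, rose from 37.6, 35.8 and 37.5 CPM to 92.7, 98.7 and 102 CPM. The coreceptor Tdgf1 (Cripto) stayed near its day 0 level, at 823, 833 and 832 CPM and then 675, 724 and 707 CPM (-0.24, adjusted p = 0.0117), with an adjusted p of 0.0556 without replicate 1 of day 3 and 0.116 with no TMM scaling.

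The activin subunit gene Inhbb and the activin inhibitor gene Fst moved in opposite directions. Inhbb (ENSMUSG00000037035, 1:119415465-119422248), the beta B subunit of activin, stood at 83.7, 86.3 and 87 CPM at day 0 and at 0.093, 0.117 and 0.162 CPM at day 3, 692-fold lower (-9.41, SE 0.15, adjusted p = 1.31e-13 by edgeR). Fst (ENSMUSG00000021765, 13:114452290-114458951), which encodes follistatin, the secreted binder of activin, went from 3.81, 3.85 and 3.74 CPM to 230, 331 and 282 CPM (6.21, SE 0.14). The other beta subunit, Inhba, had 7 counts at day 0 and 59 at day 3.

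BMP genes split by ligand. Bmp4, made by naive cells and later by extraembryonic ectoderm and mesoderm, went from 71.4, 67.8 and 69.9 CPM to 4.04, 4.68 and 4.03 CPM (-4.03, SE 0.08) and stood at a mean of 48.4 CPM at day 10. Bmp2 rose from 0.575, 0.539 and 0.652 CPM to 1.52, 2.16 and 1.94 CPM. The BMP target Id1 fell from 58.4, 56.3 and 63.1 CPM to 16.2, 22.2 and 21.8 CPM, whereas its relative Id3 rose from 17.3, 15.9 and 18.4 CPM to 35.3, 38.3 and 43.5 CPM. Gdf3, a Nodal-related ligand of stem cells, fell 3.57-fold to 30.5 ± 1.62 CPM.

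FGF ligands were exchanged between the 2 days. Of 27 genes of FGF signalling tested, 14 rose, 12 fell and 1 was not called, with a median of 0.37. Fgf4, the ligand that naive cells make themselves, went from 185, 183 and 191 CPM to 23.5, 18.1 and 18.9 CPM (-3.21, SE 0.11), opposite to Fgf5 and Fgf8 above. Fgf15 rose 3.87-fold to 23.2 ± 1.67 CPM. The receptor Fgfr1 rose from 75.4, 75.3 and 77.7 CPM to 134, 132 and 134 CPM. Feedback inhibitors of ERK did not share a direction, with Spry4 at 286, 269 and 277 CPM and then 65.6, 69.1 and 65.9 CPM, and Dusp6 at 173, 174 and 182 CPM and then 257, 339 and 304 CPM. Il17rd (Sef), another inhibitor of FGF receptors, rose 6.21-fold to 251 ± 18.6 CPM. The adaptor Shc4 rose from 0.327 ± 0.0736 to 21.6 ± 0.724 CPM.

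In the retinoic acid pathway, which patterns the trunk and must be kept low in the streak, genes changed in both directions. Of 19 tested, 6 rose, 8 fell and 5, among them the degrading enzyme Cyp26c1, were not called. Cyp26a1, the enzyme that degrades retinoic acid, went from 0.542, 0.713 and 0.477 CPM to 11.9, 24.5 and 18.4 CPM (4.98, SE 0.26). Dhrs3, which returns retinal to retinol, went from 0.854, 1.13 and 1.1 CPM to 20, 19 and 18.6 CPM. The receptor Rarg fell from 226, 221 and 234 CPM to 60.9, 57.9 and 62.3 CPM. Stra8, a retinoic acid target of germ cells, went from 748 counts over the 3 libraries to 2.

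**Figure D4:**
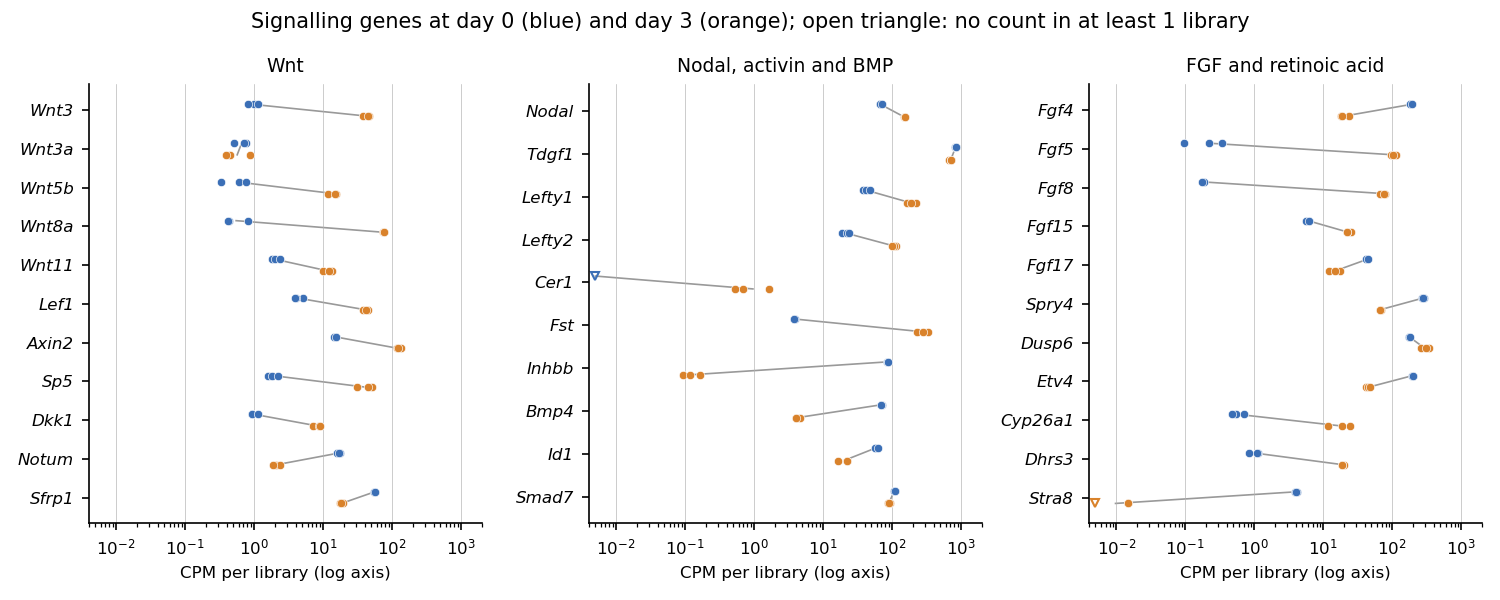
CPM (log axis) of genes of the Wnt pathway, the Nodal, activin and BMP pathway, and the FGF and retinoic acid pathways in each wild type library at day 0 (blue) and day 3 (orange), with a line joining the means and an open triangle where at least 1 library had no count. Inhbb drops from over 80 CPM to under 0.2 CPM while Fst reaches 230 CPM or more, and Bmp4 and Fgf4 fall while Wnt8a, Wnt3 and Fgf8 rise.

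Among genes that write and erase DNA methylation, Dnmt3b rose while Tet1, Tet2 and Dnmt3l fell. The genome is known to gain methylation when epiblast cells leave the naive state. Of 21 genes tested, 3 rose, 14 fell and 4 were not called. Besides Dnmt3b, the glycosylase Tdg rose (0.69, with 41.2% of its exon sequence shared), and so did Mbd1, a reader of methylation (0.23), with an adjusted p of 0.0527 without replicate 1 of day 0, 0.09 without replicate 3 of day 0 and 0.0814 without replicate 3 of day 3. Tet2 (ENSMUSG00000040943, 3:133463679-133545139), which oxidises methylated cytosine, went from 355, 355 and 347 CPM to 17.7, 15.7 and 14.1 CPM (-4.48, SE 0.11, adjusted p = 1.91e-12), and Tet1 from 865, 880 and 840 CPM to 189, 169 and 153 CPM (-2.34, SE 0.18). Tet3, the member of the oocyte and of differentiated cells, was not called (-0.12, adjusted p = 0.638).

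Dnmt3l, the cofactor of the de novo enzymes, fell from 394, 370 and 371 CPM to 20.1, 25.1 and 22.9 CPM (-4.06, SE 0.11), so catalytic subunit and cofactor went apart. Zfp57, the zinc finger protein that keeps imprints methylated, fell 13.6-fold to 30.5 ± 3.16 CPM. The maintenance enzyme Dnmt1 moved little, from 474, 475 and 478 CPM to 401, 395 and 382 CPM (-0.28, SE 0.06). No methylation was measured in these libraries.

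Germline genes that somatic cells silence by promoter methylation fell for 15 of 19 tested, with 2 rises and a median of -2.39. Hormad1, a meiotic chromosome axis protein, went from 26.5, 29.8 and 28 CPM to 0.744, 0.7 and 0.5 CPM, 43.3-fold lower. Dazl, an RNA-binding protein of germ cells, went from 15.7, 14.6 and 14.6 CPM to 2.42, 2.48 and 2.65 CPM. Ddx4 and Sycp3 were among the others that fell, with Ddx4 2.33-fold lower at 11.9 ± 0.341 CPM and Sycp3, with 43% of its exon sequence shared, 1.51-fold lower at 22.3 ± 1.07 CPM. Against the majority, Tex15, which directs methylation of transposons in the germline, rose from 14.2, 15.5 and 16.1 CPM to 69.4, 74.6 and 65.8 CPM, and Tdrd1 from 5.61 ± 0.381 to 7.94 ± 0.423 CPM.

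The promoters of these genes often hold an E-box bound by the repressors E2F6 and MGA. The letters CACGTGA, on either strand, occurred in 6 of the 18 members with a promoter in RefSeq's table for GRCm38.p6 (33.3%), against 4.29% of all 27025 genes in it, in windows of 300 bases running from 250 before the start to 50 after. Such a match describes the sequence and is not a measured binding site. A stretch of 60 bases is shown for 4 of them because members with the same box differed at day 3. Stk31 and Taf7l fell by more than 2-fold, Sycp3 fell less and Brdt was not called (-0.38). Each runs 5′ to 3′ on the gene's strand, with the box in capitals on whichever strand it was found.
Sycp3 (10:88459496-88459555, plus strand): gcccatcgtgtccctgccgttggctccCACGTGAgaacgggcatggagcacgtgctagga
Stk31 (6:49395457-49395516, plus strand): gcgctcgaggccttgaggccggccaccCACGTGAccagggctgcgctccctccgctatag
Taf7l (X:134476507-134476566, minus strand): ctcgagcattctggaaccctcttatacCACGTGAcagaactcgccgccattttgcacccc
Brdt (5:107331088-107331147, plus strand): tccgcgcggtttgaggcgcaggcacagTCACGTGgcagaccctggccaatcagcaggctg

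Genes of the rare 2-cell-like cells found in stem cell cultures fell for 18 of 19 tested, with none rising and a median of -5.19. Tmem92, of which 1.93% of the exon sequence is shared with other genes, went from 2.61, 2.38 and 1.54 CPM to 0.093, 0.0146 and 0.0147 CPM. Zscan4c, which protects telomeres in these cells, went from 10.4, 8.26 and 6.58 CPM to 0.201, 0.0583 and 0.147 CPM, but 85.5% of its exon sequence is shared with its relatives, so which copies these counts belong to is uncertain.

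All 24 genes of cholesterol synthesis and its regulation rose, 23 of them by at least 2-fold, against 13.6% of all genes tested. Their median was 1.41. Hmgcs1 (ENSMUSG00000093930, 13:119690379-119708260), which starts the pathway from acetyl-CoA, went from 148, 167 and 158 CPM to 535, 586 and 572 CPM (1.84, SE 0.07, adjusted p = 4.57e-11). Cyp51, which removes a methyl group from lanosterol, went from 54.6, 59 and 58.8 CPM to 234, 242 and 240 CPM. The enzymes of the pathway ranged from 1.03 for Ebp to 2.05 for Cyp51 on the log2 scale. Srebf2, the transcription factor of the pathway, rose least, from 91.9, 91.8 and 95 CPM to 147, 140 and 143 CPM (0.63, SE 0.10).

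Fatty acid synthesis genes, which the related factor Srebf1 controls, rose for 13 of 14 tested with a median of 0.95. Fasn, the fatty acid synthase, went from 493, 468 and 475 CPM to 1253, 1175 and 1161 CPM. The desaturases Scd1 and Scd2 rose 6.45-fold and 5.72-fold, to 150 ± 10.9 and 747 ± 38.6 CPM. The 1 fall was Acacb, whose product restrains fatty acid oxidation, from 34.3, 31.5 and 33.7 CPM to 15.8, 13.2 and 13.3 CPM. By day 10 Hmgcs1 and Fasn were below every day 3 library, at means of 278 and 371 CPM.

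In RefSeq's promoter windows, the CCAAT box (letters CCAAT, either strand), bound by the factor NF-Y that works beside the sterol factors, occurred in all 16 cholesterol genes in the table, against 41.1% of all genes. It occurred in 7 of 11 fatty acid genes (63.6%). The sterol response letters TCACNCCAC occurred in 1 of the 16 (Hmgcs1), against 1.44% of all genes. For 4 enzymes along the pathway a stretch of the window is shown with the CCAAT box in capitals, read as ATTGG where it lies on the opposite strand, to let its place before the start be compared.
Mvd (8:122443451-122443510, minus strand): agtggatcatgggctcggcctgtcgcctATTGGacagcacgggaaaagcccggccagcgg
Idi1 (13:8885533-8885592, plus strand): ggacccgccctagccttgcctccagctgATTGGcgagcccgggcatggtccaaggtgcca
Lss (10:76531515-76531574, plus strand): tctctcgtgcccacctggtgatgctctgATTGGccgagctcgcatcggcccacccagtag
Cyp51 (5:4104698-4104757, minus strand): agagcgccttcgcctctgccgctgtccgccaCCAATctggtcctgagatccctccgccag
All 4 stretches lie within 90 bases before the annotated start. Mvd and Idi1 hold another CCAAT box, beginning at bases -27 and -14 from the start, which the stretches do not show whole.

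Genes of the amino acid response, which the factor ATF4 drives when amino acids are short or the endoplasmic reticulum is stressed, fell for 28 of 32 tested, with a median of -1.18. Nupr1 (ENSMUSG00000030717, 7:126623249-126630861), a stress-induced chromatin protein, went from 17, 17.3 and 17.3 CPM to 0.542, 0.977 and 0.883 CPM (-4.41, SE 0.15, adjusted p = 2.78e-11). Asns, the asparagine synthetase, went from 526, 553 and 583 CPM to 97.3, 103 and 101 CPM (-2.47, SE 0.08). Chac1, which breaks down glutathione, and Trib3, a feedback inhibitor of ATF4, fell 12.5-fold and 9.3-fold. Genes of different branches of the response, stress regulators and amino acid enzymes alike, fell in all 3 day 3 libraries.

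Atf4 itself fell from 367, 376 and 395 CPM to 208, 214 and 226 CPM (-0.81, SE 0.07). Aars, which charges transfer RNA with alanine, fell 2.25-fold to 386 ± 8.88 CPM. Slc7a11, the cystine importer, went from 3.28, 2.96 and 2.61 CPM to 0.961, 0.758 and 0.913 CPM. The 2 members that rose were Ddit4, an inhibitor of mTORC1 that glucocorticoids and low oxygen also induce, from 28.8, 27.7 and 30.8 CPM to 48.4, 53.8 and 49.9 CPM, and Vldlr (0.33). Atf3 and Slc7a3 were not called. Of 15 chaperone genes of the endoplasmic reticulum, 5 rose, 3 fell and 7 were not called, with a median of 0.14.

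The composite element at which ATF4 pairs with C/EBP proteins (letters TGATGNAA, either strand) occurred in the promoter windows of 10 of the 28 members in the table (35.7%), against 4.51% of all genes. Stretches from 6 members that fell are shown as examples of its place in the window, with the match in capitals. Whether members with the element changed differently from those without it was not tested.
Chac1 (2:119351023-119351082, plus strand): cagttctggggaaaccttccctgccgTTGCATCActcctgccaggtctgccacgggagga
Nupr1 (7:126625547-126625606, minus strand): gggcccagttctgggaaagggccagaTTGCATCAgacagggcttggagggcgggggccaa
Asns (6:7693210-7693269, minus strand): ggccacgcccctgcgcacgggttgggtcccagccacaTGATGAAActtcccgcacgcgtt
Slc7a11 (3:50443646-50443705, minus strand): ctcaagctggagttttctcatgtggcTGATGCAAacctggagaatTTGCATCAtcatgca
Pck2 (14:55540137-55540196, plus strand): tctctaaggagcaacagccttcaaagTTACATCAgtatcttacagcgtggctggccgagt
Aars (8:111033704-111033763, plus strand): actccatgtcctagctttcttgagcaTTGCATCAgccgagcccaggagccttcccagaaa
Slc7a11 carries 2 matches in opposite orientations. Aars also has a second match, at base 10 after the start, outside the stretch shown. The element was also present in Vldlr, which rose, and in Atf3, which was not called, so members with the same letters did not all move alike.

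**Figure D5:**
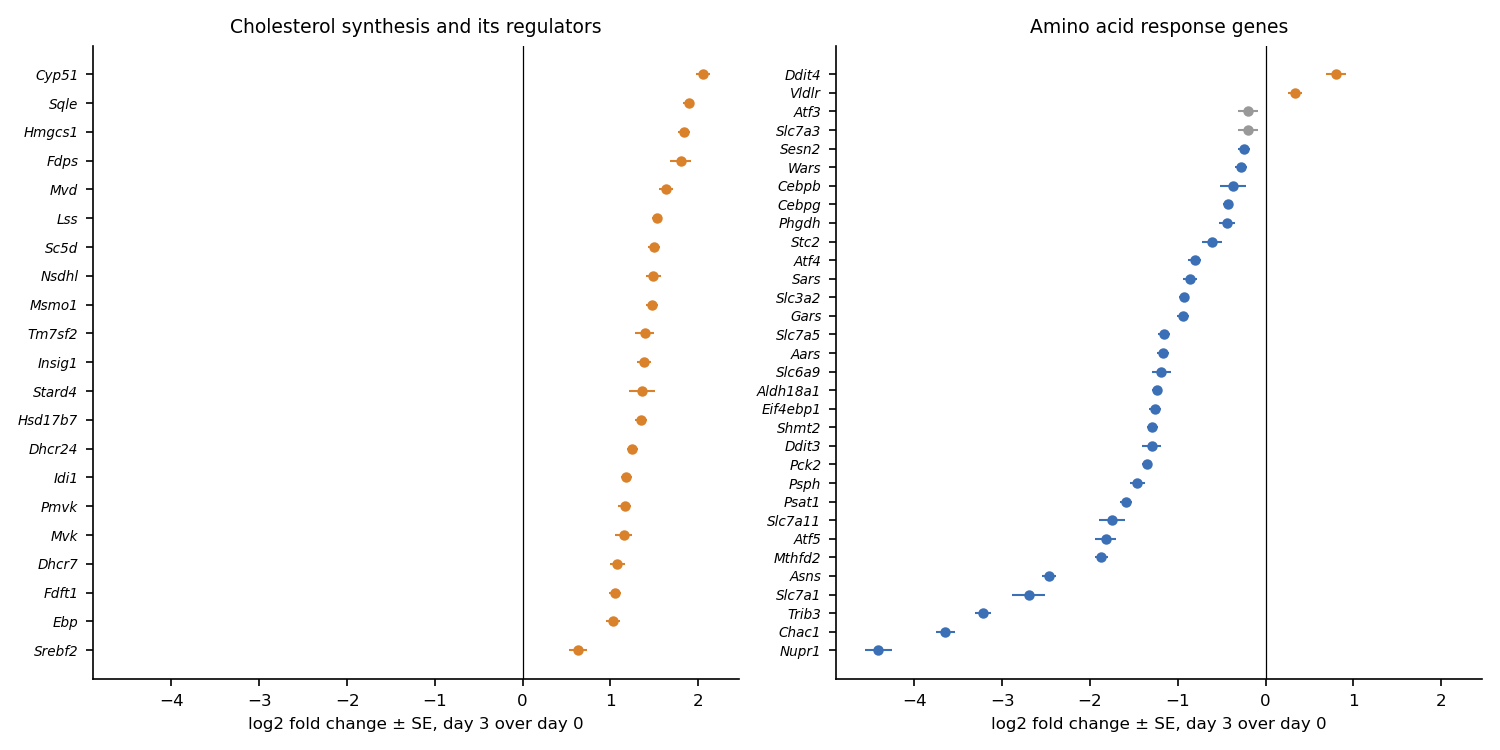
Log2 fold change, day 3 over day 0, with its SE for 21 of the 24 genes of cholesterol synthesis and the 32 genes of the amino acid response, sorted by value (orange higher, blue lower, grey not called). Every cholesterol gene drawn lies to the right of 0, with Srebf2 nearest to it at 0.63. Of the amino acid genes, 28 were called lower, down to Nupr1 at -4.41.

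Messenger RNAs of the mitochondrial genome were lower at day 3, with 11 of 13 called lower, none higher, and a median of -0.96. mt-Cytb, a subunit of complex III, went from 1715, 1359 and 1298 CPM to 964, 543 and 497 CPM (-1.13, SE 0.21, adjusted p = 0.00033). mt-Nd1, a subunit of complex I, went from 2261, 1680 and 1670 CPM to 1528, 881 and 804 CPM. Replicate 1 was the highest of its group on both days for these 2 genes. For mt-Nd2, called at an adjusted p of 0.0199, the groups overlapped, at 660, 468 and 481 CPM against 494, 248 and 248 CPM. The share of all counts on mt-Rnr2 fell in parallel, from 13.73%, 11.79% and 11.44% at day 0 to 9.53%, 6.54% and 5.82% at day 3, and its part in the messenger result was not tested. Nuclear genes of the respiratory chain did not follow, since 4 of 41 rose, 14 fell and 23 were not called, with a median of -0.12.

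Epithelial junction genes rose. Of 24 tested, 19 rose, 2 fell and 3 were not called, with a median of 1.03. Esrp1, a splicing factor of epithelial cells, went from 9.77, 8.95 and 9.53 CPM to 84, 86.1 and 82.9 CPM (3.16, SE 0.09). The claudins Cldn6 and Cldn7, which seal tight junctions, rose to 153 ± 6.39 and 35.8 ± 1.83 CPM, and the adhesion molecule Epcam from 94.4 ± 2.05 to 198 ± 1.45 CPM. Cdh1 (E-cadherin) stood at 323 ± 0.791 and then 420 ± 4.56 CPM (0.38, SE 0.14, adjusted p = 0.028), but its adjusted p ran from 0.0507 to 0.0666 when any 1 of the 6 libraries was left out. By edgeR, it was also 0.0718 with upper-quartile factors and 0.0646 with a mean of at least 1 CPM required. With protein-coding genes only it was 0.0623, and 0.0802 with those without shared sequence.

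Mesenchymal switch genes were divided, with 10 of 21 higher, 9 lower and a median of 0.07. Cdh11, a cadherin of mesenchyme, went from 0.131, 0.143 and 0.0318 CPM to 21.2, 40.1 and 27.6 CPM, 291-fold higher (8.16, SE 0.36). Cdh2 (N-cadherin) rose 6.92-fold to 30.4 ± 7.19 CPM, and Snai1, which represses E-cadherin in the streak, from 0.854, 0.666 and 0.779 CPM to 4.23, 7.7 and 6.3 CPM. In the other direction, the repressor Zeb1 fell from 24.6, 25.4 and 23.1 CPM to 2.8, 3.1 and 2.72 CPM, and the intermediate filament Vim from 196, 193 and 212 CPM to 63.9, 84.2 and 79.8 CPM. At day 10 Cdh11, Zeb1 and Vim were at means of 444, 70.5 and 830 CPM, all above day 3.

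Surface and secreted genes of naive cells fell for 11 of 18 tested and rose for 6, of which 3 by at least 2-fold. Pecam1, an adhesion molecule on naive cells and endothelium, went from 56.6, 57.9 and 58.6 CPM to 4.71, 4.11 and 3.5 CPM. Spp1 (osteopontin) went from 162, 161 and 166 CPM to 6.35, 5.99 and 5.75 CPM. Prom1 (CD133) was the member with the largest rise, from 3.73, 4.29 and 4.53 CPM to 103, 111 and 102 CPM (4.65, SE 0.08).

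Among splicing regulators, the 2 genes that the rest of the series deletes differed in this normal course. Of 31 tissue-specific splicing regulators tested, 16 rose, 6 fell and 9 were not called, with a median of 0.35. Qk, which encodes Quaking, stood at 237, 230 and 225 CPM at day 0 and at 232, 229 and 216 CPM at day 3, with overlapping groups (-0.03, SE 0.06, adjusted p = 0.711). Khdrbs1, which encodes Sam68, rose from 97.5, 98 and 95.1 CPM to 153, 165 and 161 CPM (0.72, SE 0.11, adjusted p = 9.36e-05), and its paralogue Khdrbs3 from 25.5 ± 0.801 to 32.8 ± 0.888 CPM. At day 10 Qk was at 268 CPM, above day 3, and Khdrbs1 at 115 CPM, below it.

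Other members of this list changed more. Ptbp2, the neural relative of the polypyrimidine tract protein, rose from 37.5, 40.7 and 37.2 CPM to 109, 110 and 110 CPM, and Celf2 from 3.82 ± 0.143 to 16 ± 1.57 CPM. Rbm24, a regulator of muscle splicing, rose 8.84-fold from 24 counts to 228. Mbnl2, a muscleblind protein, fell from 91.7, 82.3 and 77.5 CPM to 38.7, 37.2 and 36.3 CPM. Esrp1, described with the epithelial genes, belongs to this list too.

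Where the higher group averaged 1 CPM or more, and leaving out predicted models and pseudogenes, the 10 largest rises included Fgf5, Fgf8, T, Ttr, Cdh11 and Aplnr. Pcdh7, a protocadherin, had 15 counts at day 0 and 7055 at day 3 (8.73, SE 0.30). Gjd2, a neuronal connexin, and Cyp4f15, a cytochrome P450, had no count at day 0 and were at least 72.5-fold and 66.5-fold higher. Evx1os, which runs antisense to Evx1, rose 242-fold (7.89 on the log2 scale, and 8.56 without replicate 1 of day 0). The strand setting of the counting is not given in the sources used here, so whether its reads were kept apart from those of Evx1 is not known.

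The 10 largest falls included Inhbb and Stra8 with several genes not often linked to stem cells. Emp1 (ENSMUSG00000030208, 6:135362545-135383173), an epithelial membrane protein, stood at 93.1, 92.5 and 92.1 CPM at day 0 and at 0.108, 0.0875 and 0.132 CPM at day 3, 846-fold lower (-9.70, SE 0.17). Laptm5, a lysosomal protein best known from blood cells, went from 85.7, 83.3 and 88.4 CPM to 0.527, 0.35 and 0.456 CPM, 193-fold lower. Myo1f, an unconventional myosin, fell 248-fold, and the calmodulin relative Calml4 fell 150-fold. Nkx6-3, a homeobox factor, had 1814 counts at day 0 and 3 at day 3. Ceacam20 had 384 counts and none at day 3, at least 138-fold lower, and Dgkeos at least 86-fold lower. Emp1 and Laptm5 were partly back at day 10, at means of 11.6 and 24.8 CPM.

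Compared per kilobase of exon, the largest gains of RNA per gene were mostly ribosomal and translation genes with small fold changes. Eef2, the elongation factor of translation, went from 808 to 1121 CPM per kb and Rplp0, a ribosomal stalk protein, from 749 to 1020, with 33.1% of its exon sequence shared with other genes. Pkm, the pyruvate kinase, went from 538 to 768 CPM per kb. Trh and Dnmt3b reached this level from far below, Trh from 78.9 to 729 CPM per kb and Dnmt3b from 41.9 to 321. Rpl23a and Mif were also among the 10 but share 80.8% and 50.9% of their exon sequence with other genes or pseudogenes. Of 79 ribosomal protein genes tested, 20 rose, 1 fell and 58 were not called, with a median of 0.12.

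The largest losses per kilobase were of stem cell and stress genes. Dppa5a, an RNA-binding protein of pluripotent cells, went from 1203 to 448 CPM per kb, with 38.6% of its exon sequence shared, and Zfp42 from 333 to 16.1. Asns went from 202 to 36.7, Tmsb4x, which binds free actin, from 212 to 31.5, and Tdh, the threonine dehydrogenase on which mouse stem cells depend, from 167 to 38.1. Trim28, the corepressor of zinc finger proteins such as Zfp57, went from 496 to 356 CPM per kb, a fall of only 1.39-fold. The chaperones Hsp90aa1 and Hspb1 and the metallothionein Mt2 were on the same list, but 45.8% to 50.1% of their exon sequence is shared with other genes.

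Counts on the hairpin genes of the 2 microRNA clusters of early embryos moved in opposite directions. These genes were looked at after other values had been seen. Counts on a hairpin come from long precursor RNA in this library type, and mature microRNA was not measured. All 7 hairpin genes of the miR-290 to miR-295 cluster on chromosome 7 that were tested were lower, but for 6 of them 100% of the exon sequence is shared with other annotated transcripts, so they are not separately counted loci. Mir290a, with 26.5% shared, went from 8.72, 7.91 and 6.81 CPM to 3.66, 3.5 and 2.74 CPM (-1.24, SE 0.15). Mir294 had the smallest change (-0.68), and its adjusted p was 0.0568 without replicate 1 of day 0 and 0.0509 without replicate 3 of day 3. On chromosome 3, within the span of the gene Larp7 but on its opposite strand, Mir302b went from 1 count to 182 and Mir302a from 1 to 148. Mir367 had none at day 0 and was at least 14.3-fold higher. Larp7 itself rose 1.4-fold. The strand setting of the counting is not given, so whether reads of opposite strands were kept apart is not known. Mir290b, annotated on the opposite strand within Mir290a, had 0 counts on both days. Mir290a had 1458 counts at day 0 and 662 at day 3. Whether reads were counted by strand was not tested. Mature forms from RefSeq are shown because some members of both clusters carry one seed (bases 2 to 8, in capitals). They were picked for that seed, and other members carry others, such as AGUGCUU in miR-302c-3p and AAGUGCC in miR-290a-3p.
mmu-miR-291a-3p: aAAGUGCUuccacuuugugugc
mmu-miR-294-3p: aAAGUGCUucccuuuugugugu
mmu-miR-295-3p: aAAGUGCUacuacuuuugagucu
mmu-miR-302b-3p: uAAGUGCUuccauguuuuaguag
mmu-miR-302d-3p: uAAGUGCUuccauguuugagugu
The first 3 belong to the cluster whose hairpin counts fell and the last 2 to the one whose tested hairpin counts rose, and their seeds are identical. Mir302d itself had 0 counts at day 0 and 12 at day 3 and was too low to test.

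Some of these changes had turned back by day 10. Of the 550 genes called at least 10-fold higher at day 3, the 3 day 10 libraries were all below the day 3 libraries for 203 and all above them for 291. Fgf5, T, Eomes and Wnt8a were among the former, and Apob, Ttr and Cdh11 among the latter. Of the 702 genes called at least 10-fold lower, the day 10 libraries were all above day 3 for 311 and all below for 116. Klf4, Socs3, Bmp4 and Tet2 were higher again at day 10, whereas Esrrb, Zfp42 and Dnmt3l were lower still. No test was made on day 10. The share of all genes tested that separate between days 3 and 10 is not given here, so these counts have no background. The genes were chosen by their change at day 3, and the part of that choice in the counts was not tested.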

How the data were processed

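Total RNA of E14 cells and embryoid bodies was depleted of ribosomal RNA and sequenced with a stranded kit, per the labels' protocols. Reads were demultiplexed with bcl2fastq 2.17.1.14 and aligned with STAR 2.5.3a to GRCm38 (mm10), per the submitters' processing notes. Which program counted the reads, whether by strand and on which annotation, is not given in the sources used here. The authors deposited 1 file of raw counts per library, with 51826 gene identifiers, of which 51633 (99.63%) matched GENCODE mouse release 21 without version.

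Counts of the 9 wild type libraries were fitted with edgeR 4.0.16 (R 4.3.3, limma 3.58.1): filterByExpr (minimum count 10, total 15), TMM factors, glmQLFit and glmQLFTest for day 3 against day 0, and Benjamini-Hochberg adjustment. The filter left out 30766 genes, 11716 of them with a count in the 6 libraries. Day 10 libraries share the estimate of spread and are otherwise described by level. CPM are counts over TMM-scaled totals, and CPM per kb divides by the summed exon length. For a group with no count, a fold bound was taken from 3 counts in that group, 0.0161 CPM at day 0 and 0.0149 CPM at day 3, which covers counting error only. The fit was tested on simulated counts. Shared exon sequence was counted in windows of 50 bases over annotated transcripts. Promoter and microRNA sequences are RefSeq's for GRCm38.p6.

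Some genes of the lists are counted but not reported by name here. The members and the 45 gene lists were chosen with earlier results of these data known. Named genes are each list's key members, its 2 largest called rises and falls with a mean of at least 1 CPM, called members against the list's majority, the 10 largest rises and falls over all genes with that mean in the higher group (no predicted models or pseudogenes), and the 10 largest gains and losses of CPM per kb. Other genes named (such as Tmem92, Snrpn, Ebp, Lss, Mtf2, Pcna, Stk31, Kdr, microRNA and long noncoding genes) fall outside this rule and were chosen after their values were seen. Alternatives were DESeq2 1.42.0, other scaling factors and filters, fits on the 6 libraries, a replicate block, protein-coding genes, a 1.5-fold null and leaving out each library.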

Additional observations from a re-analysis of the deposited data

How the results depend on the processing

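The 6 counts of called genes were recomputed under 20 alternatives, and the total also against a null of at most 1.5-fold, and none moved by over 1.5 times except as follows. With protein-coding genes without shared sequence only, fewer genes were tested, and 4608 were called, 2311 higher and 2297 lower, of which 2159 by at least 2-fold (1111 higher, 1048 lower). With a mean of at least 1 CPM at day 0 or day 3 required, 3595 changed at least 2-fold (1817 higher, 1778 lower), again among fewer genes. Against that null, 6577 were called. Leaving out each of the 9 libraries in turn gave 11753 to 14463 calls, 5892 to 7300 higher and 5834 to 7163 lower, and 5831 to 6183 by at least 2-fold (2805 to 2955 higher, 2976 to 3236 lower). DESeq2 called 12521 genes. Without TMM scaling 57.7% of calls were higher, against 50.6%, and the median of all genes was 0.11 against 0.01 (log2), so small rises and falls are relative to the scaling. The replicate block gave 13215 calls on 9 libraries and 14302 on 6. Deviations from group means correlated at 0.074, -0.005 and 0.081 between same-numbered day 0 and day 3 libraries, and at -0.086 to 0.012 between the others. Not every library correlated best with its own number. Whether the numbers mark a shared culture or batch was not tested. Of 8933 values of 465 genes under these alternatives, 8766 kept their direction and their side of the threshold, 124 lost the call and 43 gained one. None reversed. Of 857 list medians, 165 moved by more than 1 SD between replicates. Genes with a few counts on 1 day are limited by depth, and their fold changes are bounds or rest on counts given above.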

Other observations

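Transcripts named for their link to pluripotent cells, most of them noncoding, were lower at day 3. Of 24 Platr genes tested, named as pluripotency-associated transcripts, 23 were lower and 1 was not called, with a median log2 fold change of -2.53 and a range of -6.51 to 0.10. Platr17 and Platr25 among them are annotated as protein-coding. These genes were looked at after other values had been seen. Lncenc1, a nuclear RNA abundant in naive cells, went from 160, 154 and 153 CPM at day 0 to 11, 10.4 and 8.4 CPM at day 3 (SE 0.10 on a log2 fold change of -3.97). Halr1, transcribed beside the Hoxa cluster, went from 46.7 ± 3.19 to 0.565 ± 0.181 CPM, and Eprn from 31.7 ± 1.14 to 0.428 ± 0.0714 CPM (SD, n = 3). Snhg14, the long transcript of the Snrpn imprinted region, rose 3.9-fold to 93 ± 21.3 CPM, and Snrpn itself rose from 22.6 ± 0.466 to 91.4 ± 1.81 CPM.

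Among 29 imprinted genes tested, 14 rose, 11 fell and 4 were not called, while 30.8% of all genes tested rose and 30.1% fell. Magel2, a ubiquitin ligase partner of the same region, went from 0.312, 0.333 and 0.207 CPM to 22.3, 17.7 and 21.4 CPM. Peg3, a zinc finger gene, rose 5.23-fold to 337 ± 44 CPM. Cdkn1c, the cyclin-dependent kinase inhibitor p57, fell from 94.8, 89.9 and 105 CPM to 18.9, 19.9 and 21.8 CPM, and H19 from 2.95 ± 0.164 to 1.03 ± 0.283 CPM. Igf2 was not called, at 8.26 ± 0.277 and 7.62 ± 0.488 CPM, and had a mean of 3929 CPM at day 10, although 62.1% of its exon sequence is shared with other transcripts. Allele-specific expression was not measured.

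Among 30 Polycomb subunits, 5 rose, 15 fell and 10 were not called, beside 30.8% higher and 30.1% lower over all genes tested. Mtf2, which recruits the complex PRC2 to CpG islands, went from 552, 547 and 528 CPM to 171, 172 and 165 CPM, and the enzyme Ezh2 from 110, 114 and 115 CPM to 65.2, 67.7 and 66.3 CPM. Cbx2 and Yaf2, parts of PRC1 complexes, rose to 45.2 ± 1.62 and 22 ± 0.441 CPM. Among 20 Notch genes, 12 rose and 6 fell. Rbpj, the DNA-binding partner of Notch, fell from 526, 526 and 521 CPM to 118, 113 and 109 CPM. The receptors went apart, with Notch3 rising from 50.8, 53 and 55.7 CPM to 214, 174 and 182 CPM and Notch4 falling from 20.4, 18.5 and 19.1 CPM to 2.17, 1.75 and 1.52 CPM.

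Cell cycle genes fell for 17 of 39 tested and rose for 5, with a median of -0.13. Of all genes tested, 30.1% fell and 30.8% rose. Ccnd3, a D-type cyclin, fell from 195, 181 and 188 CPM to 40.6, 42.4 and 41.1 CPM, and Ccne1, which starts S phase, from 281 ± 12 to 146 ± 4.75 CPM. Pcna (0.01, adjusted p = 0.898) and Mki67 (0.00, adjusted p = 0.996), markers of replicating and cycling cells, were not called. Among 32 genes of glycolysis and the hypoxia response, 14 rose and 9 fell. Hk2, a hexokinase, fell from 511, 471 and 464 CPM to 221, 215 and 205 CPM, and the lactate exporter Slc16a3 rose from 68.8, 66.4 and 69.7 CPM to 235, 213 and 234 CPM.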
